A study of Mus musculus with 31 samples.

Results

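On day 7 of culture, DN1 thymocytes whose E2A and HEB genes were flanked by loxP sites (floxed) were set against DN1 thymocytes without those alleles (control). It comprised 4 of the 31 RNA-seq libraries of the series, chosen by their titles: floxed replicates a and b and control replicates c and d. Both genotypes were C57BL/6 and carried R26-CreERT2, a tamoxifen-inducible Cre recombinase expressed from the ubiquitously active ROSA26 locus, and R26-stop-tdTomato, a reporter that turns on in cells where Cre has acted. The floxed cultures carried E2Af/fHEBf/f in addition. All 4 cultures grew on OP9-DL1, a bone marrow stromal line that presents the Notch ligand DL1, with stem cell factor and the interleukins IL-7 and IL-2, and tdTomato-positive cells were sorted for RNA. The sample labels place the addition of 4-hydroxytamoxifen on day 7, whereas the design text places tamoxifen on day 4. Of the libraries used for comparison below, those of DN1 day 5 and DN3 day 7 are labelled with 4-hydroxytamoxifen on day 4, and those of DN1 day 4 with none. This Cre was not limited to one cell type, and the sort selected for Cre activity at the reporter and not for deletion of E2A and HEB. No source states whether replicates came from separate mice or cultures. The p-values therefore measure only the spread between libraries, pooled over all culture groups fitted and not taken from these 4 alone.

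E2A (gene Tcf3) and HEB (gene Tcf12) are E proteins, basic helix-loop-helix transcription factors that bind E-box sequences and drive the recombination and receptor genes of early T cell precursors. Id proteins dimerise with E proteins and keep them off DNA. DN1 is the earliest double-negative (CD4-negative, CD8-negative) stage of the thymus and still holds cells able to take other lymphoid fates, among them group 2 innate lymphoid cells (ILC2), which lack a rearranged antigen receptor and make type 2 cytokines.

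The 4 libraries held 7774315 and 7506483 counts in floxed replicates a and b and 8243416 and 8010706 counts in control replicates c and d, so that a level of 1 CPM (a count over its library total, scaled to 1000000) rested on about 8 counts. Floxed replicate b held skeletal muscle RNA: the 13 listed muscle markers summed to 75.5 and 8870 CPM in floxed replicates a and b, and to 10.2 CPM in each control library, where 2 and 5 of the 13 were at 0. Floxed replicate a thus also stood above the controls in these markers. The sums of OP9 stroma markers were 71.4 and 148 CPM in floxed and 197 and 99.2 CPM in control libraries, those of myeloid markers 145 and 132 against 116 and 99.2 CPM, those of mast cell markers 309 and 258 against 233 and 247 CPM (almost all Cpa3, with 4 or 5 of the 7 markers at 0 in each library), those of B cell markers 2.32 and 1.73 against 7.52 and 3.99 CPM, and those of erythroid markers 50.9 and 32.5 against 238 and 287 CPM. Of these lists, 12 muscle, 8 stroma, 8 myeloid, 2 mast cell, 2 B cell and 3 erythroid genes could be tested, and only Ctss was higher and Ebf1 and Hbb-bt lower in floxed cultures by the rule given below (list medians of 9.48, -0.75, 0.58, -1.40, -1.54 and -1.85 on the log2 scale). The call of Ebf1 did not hold without floxed replicate a or control replicate c (adjusted p = 0.118 and 0.549 in edgeR), and its change was -1.65, or -2.27 without floxed replicate b. Genotype and sex cannot be told apart: Xist stood at 1634 and 1278 CPM in floxed and 13.6 and 6.87 CPM in control libraries, and 4 Y-linked genes summed to 0.772 and 2.53 against 166 and 191 CPM. Results are therefore given for chromosomes 1 to 19. In RNA from a bulk sort, fewer cells of a type and less RNA per cell cannot be told apart. The parts of other cell types and of sex in the results below were not tested.

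The DN thymocyte markers were present, summing to 1823 and 1810 CPM in floxed and 2005 and 1985 CPM in control libraries over 6 genes, with none at 0. Ptprc, the pan-leukocyte gene CD45, stood at 324 and 319 CPM in floxed and 330 and 301 CPM in control libraries. Il2ra, whose protein CD25 marks the stages after DN1, stood at 1096 and 1160 against 1279 and 1308 CPM, so the CD25 message was abundant in both genotypes, although DN1 names cells without CD25 and therefore the cells put into culture. Of the 6 markers, only Thy1 was called, lower in floxed cultures with a log2 change of -0.48 ± 0.11 (± is the standard error of a log2 change throughout).

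The targeted genes were read in each library. Tcf12 (HEB, chr9:71842688-72111871, mm10) had 110 and 103 CPM in floxed and 273 and 285 CPM in control libraries, a log2 change of -1.33 ± 0.10 (edgeR quasi-likelihood test with Benjamini-Hochberg adjustment, adjusted p = 6.53e-08). Its message was thus lower in both floxed libraries but remained well above 0. Tcf3 (E2A, chr10:80409514-80433647) had 38.3 and 16.3 CPM in floxed and 81.6 and 94.6 CPM in control libraries, a log2 change of -1.64 ± 0.37 (adjusted p = 0.00326 in edgeR). Without floxed replicate b the Tcf3 change was -1.17 and did not pass (adjusted p = 0.0551 in edgeR). The groups did not overlap for either gene. The labels do not name the floxed exons, and a gene's count includes reads from exons outside a deleted part.

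A gene is called higher or lower here where its adjusted p was under 0.05 with the same sign in 2 fits, over all 24 culture libraries and again without floxed replicate b, so that a change had to show in floxed replicate a as well. Of 14570 genes tested on chromosomes 1 to 19, 3284 (22.5%) passed with all libraries, 1780 higher (12.2%) and 1504 lower (10.3%) in floxed cultures, and 1447 (9.93%) were called by both fits, 789 higher (5.42%) and 658 lower (4.52%). The second requirement removed 991 higher and 846 lower genes. Of the called genes, 412 higher and 399 lower ones changed at least 2-fold in both fits, and 99 and 87 at least 8-fold. Median log2 changes were 1.24 over the higher and -1.43 over the lower genes, against 0.00 over all tested genes. Floxed and control libraries did not overlap for 54.5% of all genes tested, so a lack of overlap alone is common with 2 libraries a group.

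**Figure D1:**
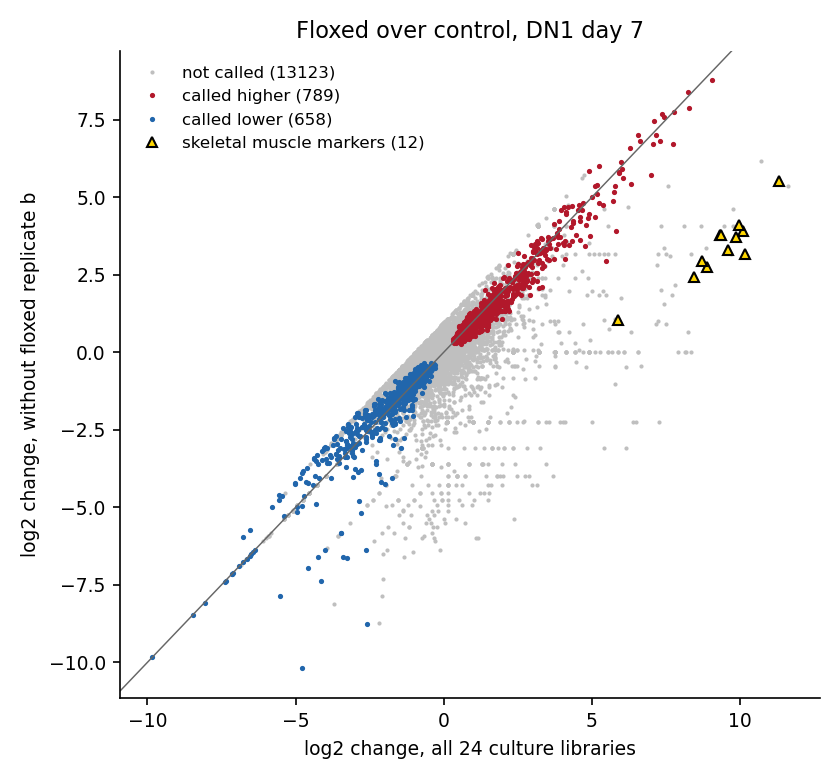
Log2 change of floxed over control DN1 cultures on day 7 for each gene tested on chromosomes 1 to 19, with all 24 culture libraries (x axis) and without floxed replicate b (y axis). Red points are the 789 genes called higher and blue points the 658 called lower; the 12 skeletal muscle markers (triangles) lie far below the diagonal, with a median of 9.48 with floxed replicate b and 3.51 without it.

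Replicates of the floxed group differed more than those of the control group. Among 6795 genes averaging at least 20 CPM in either group, 383 stood at least 2-fold apart between floxed replicates a and b, 87 higher and 296 lower in b, against 17 between control replicates c and d. Values of each library are therefore given below.

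The 4 genes supplied as marks of the experiment all passed. They were supplied for this same comparison, so their passing is not independent support. Icos (chr1:60977927-61000320), an inducible costimulatory receptor of T cells and ILC2, had 246 and 444 CPM in floxed and 14 and 10.7 CPM in control libraries (log2 change 4.87 ± 0.45, adjusted p = 5.06e-07 in edgeR). Maf (chr8:115682942-115707794), a bZIP transcription factor of ILC2 and of type 2 helper T cells, had 759 and 809 CPM in floxed and 79.9 and 58.5 CPM in control libraries (3.56 ± 0.33, adjusted p = 5.24e-07 in edgeR). Lmo4 (chr3:144188530-144205220), a LIM-only cofactor, reached 2056 and 2244 CPM in floxed against 246 and 200 CPM in control libraries (3.33 ± 0.24, adjusted p = 2.93e-08 in edgeR). For all 3 genes the lower floxed library stood far above the higher control library. Dntt (chr19:41029275-41059525) encodes terminal deoxynucleotidyl transferase, which adds bases at recombining antigen receptor joints. It had 14.1 and 11.2 CPM in floxed and 296 and 271 CPM in control libraries (-4.42 ± 0.43, adjusted p = 9.62e-07 in edgeR), a clear separation the other way.

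The largest increases were ranked by the smaller of the 2 fitted changes, among protein-coding genes with at least 20 CPM on average in the higher group and no overlap. They were, in order, Rxrg, Ikzf3, Il13, Cxcr6, Homer2, Lgals3, Myo6, Gdpd3, Icos, Tns4, Asb2 and Nt5e. Rxrg, a retinoid X receptor, had 138 and 218 counts in floxed libraries and 0 and 1 in control libraries, a ratio of 379 (95% interval of counting error 67.5 to 15000). Ikzf3 (Aiolos, a zinc finger factor of the Ikaros family) had 66.2 and 73.5 CPM in floxed and 1.70 and 0.499 CPM in control libraries, 6.02 ± 0.55 on the log2 scale. Both genes were close to silent in control cultures. Il13, a defining cytokine of ILC2, had 13.6 and 35.4 CPM in floxed and 0.364 and 0.250 CPM in control libraries (6.31 ± 0.79, adjusted p = 1.37e-05 in edgeR; 5.43 without floxed replicate b). Cxcr6, the receptor of CXCL16, had 32.4 and 52.4 CPM against 1.21 and 0.374 CPM. Lgals3 (galectin-3) was the most abundant of the 12, with 1053 and 1702 CPM in floxed and 45.7 and 31.1 CPM in control libraries (5.23 ± 0.55). Every one of these had its lower floxed library above its higher control library by more than the gap between the 2 floxed libraries on the log scale.

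Myo6, an unconventional myosin, had 266 and 543 CPM in floxed and 11.6 and 8.61 CPM in control libraries (5.39 ± 0.50, or 4.75 without floxed replicate b). Homer2, a scaffold protein, had 33.8 and 35 CPM in floxed and 1.58 and 0.374 CPM in control libraries, and Gdpd3, a lysophospholipase D, 43.7 and 32.5 against 2.43 and 0.874 CPM. The floxed libraries were close to each other for these last 2 genes. Nt5e (CD73, which makes adenosine from AMP) had 32.2 and 18.1 CPM against 1.58 and 1.87 CPM, and Tns4, a tensin, 46.2 and 13.7 against 1.46 and 2.50 CPM (3.96 ± 0.56, or 4.57 without floxed replicate b). Asb2, a ubiquitin ligase subunit also expressed in muscle, stood at 9.26 and 58.7 CPM in floxed and 0.728 and 0.499 CPM in control libraries. Its log2 change was 5.83 ± 0.88 with all libraries and 3.91 without floxed replicate b, and the higher of its floxed libraries was the one with muscle RNA.

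The largest decreases were Mpzl2, Cd3g, Ly6d, Mzb1, Rag1, Dntt, Tspan2, Khdc1a, Ctla4, Bpifc, Cd3d and Lyl1. Cd3g, a chain of the CD3 signalling complex of the T cell receptor, had 2.57 and 3.20 CPM in floxed and 84.7 and 81.0 CPM in control libraries (-4.78 ± 0.29, adjusted p = 5.75e-09 in edgeR). Rag1, the recombinase that cuts antigen receptor loci, had 2.19 and 4.40 CPM in floxed and 63.7 and 71.8 CPM in control libraries (-4.30 ± 0.50, adjusted p = 5.96e-06 in edgeR; -4.91 without floxed replicate b). Cd3d, which lies next to Cd3g in the genome, had 15.6 and 16.1 CPM in floxed and 180 and 152 CPM in control libraries. Control libraries of these 3 genes were close to each other and both floxed libraries were far below them. Mpzl2, an adhesion protein, had 0.643 and 0.799 CPM in floxed and 23.7 and 24.2 CPM in control libraries. Tspan2, a tetraspanin, had 6.05 and 0.933 against 121 and 114 CPM, and Khdc1a, a KH domain protein, 4.50 and 1.87 against 77.2 and 90 CPM. Ctla4, an inhibitory receptor, had 7.59 and 2.13 against 91.6 and 99.5 CPM, and Bpifc, a BPI-fold protein, 2.06 and 0 against 20.4 and 25.0 CPM. Without floxed replicate b the changes of Tspan2, Ctla4 and Bpifc were -4.25, -3.62 and -3.42, against -5.00, -4.23 and -4.37 with it. In all 12 the higher floxed library was below the lower control library, which the choice of genes required.

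**Figure D2:**
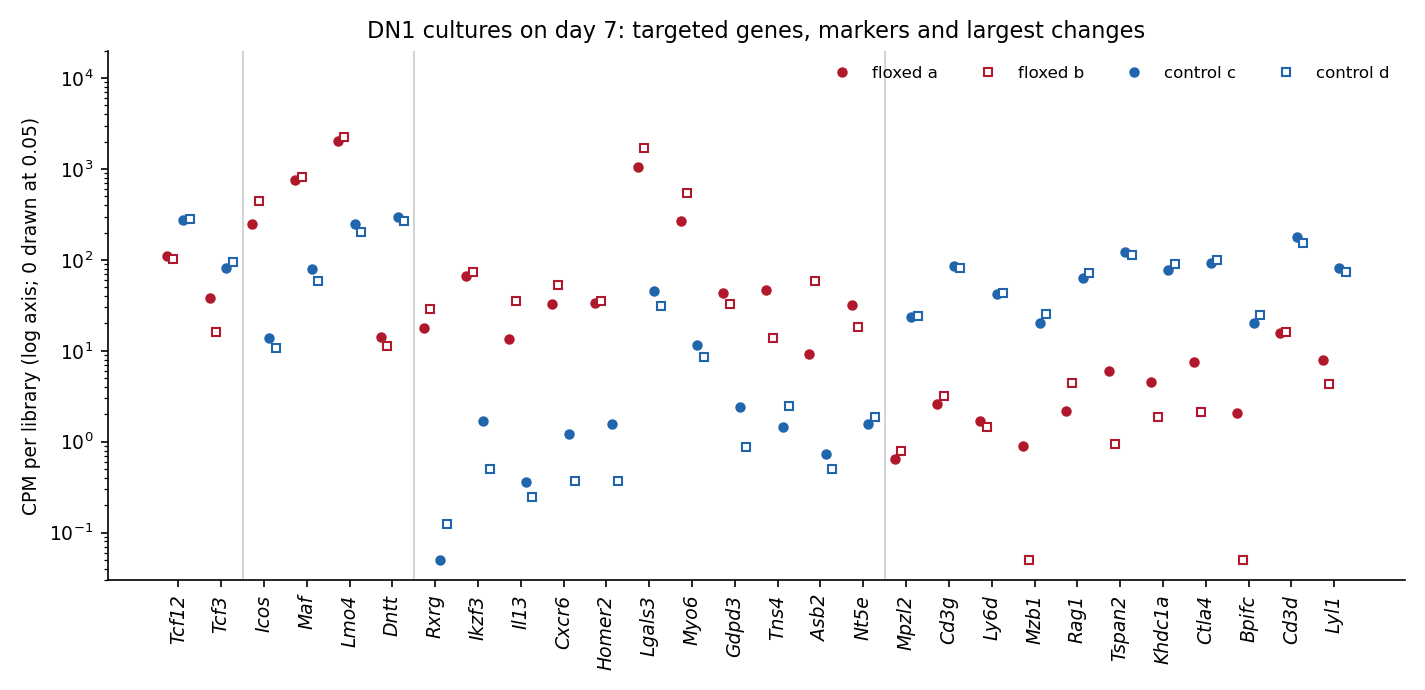
Level in CPM of each DN1 day 7 library (log axis, a value of 0 drawn at 0.05) for the targeted genes, the 4 supplied markers and the genes with the largest increases and decreases; filled circles are floxed replicate a and control replicate c, open squares floxed replicate b and control replicate d. Floxed (red) points lie above control (blue) points for every gene of the third block and below them for every gene of the fourth.

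E proteins bind the E-box letters CAGCTG and CACCTG, and promoters of these genes were read for them. RefSeq (GRCm38.p6) promoters reach from 250 bases before to 50 bases after a gene's start, and 18 of the 26 supplied or largest-change genes sought had one. Both strands were searched for CAGCTG, which is its own reverse complement, and for CACCTG, which reads CAGGTG on the other strand, and no matches overlapped in the promoters shown. The promoters of 6 of the 18 held a match, those of Cd3g, Rag1, Cd3d, Ctla4, Lyl1 and Lgals3. Shown are the promoters of the lower genes Cd3g (3 matches), Rag1 (2) and Dntt (0), beside those of the higher genes Lgals3 (2) and Lmo4 (0). They lie at chr9:44980382-44980681 (minus strand), chr2:101649483-101649782 (minus), chr19:41029025-41029324 (plus), chr14:47373610-47373909 (plus) and chr3:144205206-144205505 (minus), in that order. Capitals mark the matches.
Cd3g: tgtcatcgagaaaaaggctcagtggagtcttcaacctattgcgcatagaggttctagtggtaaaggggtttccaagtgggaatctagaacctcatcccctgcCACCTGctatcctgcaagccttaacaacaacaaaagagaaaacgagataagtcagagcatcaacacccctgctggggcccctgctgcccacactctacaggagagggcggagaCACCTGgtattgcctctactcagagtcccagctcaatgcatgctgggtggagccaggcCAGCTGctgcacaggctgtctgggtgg
Rag1: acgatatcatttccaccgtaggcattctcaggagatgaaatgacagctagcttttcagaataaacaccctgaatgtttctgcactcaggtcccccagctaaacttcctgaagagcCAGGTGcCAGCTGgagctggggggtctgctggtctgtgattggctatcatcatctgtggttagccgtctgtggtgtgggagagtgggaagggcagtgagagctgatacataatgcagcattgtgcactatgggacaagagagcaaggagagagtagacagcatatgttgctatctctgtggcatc
Dntt: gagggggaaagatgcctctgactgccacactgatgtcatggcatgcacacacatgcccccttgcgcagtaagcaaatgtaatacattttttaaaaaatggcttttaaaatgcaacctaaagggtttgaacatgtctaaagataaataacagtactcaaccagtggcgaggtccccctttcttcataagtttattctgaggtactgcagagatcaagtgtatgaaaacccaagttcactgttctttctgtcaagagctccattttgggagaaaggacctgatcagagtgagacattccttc
Lgals3: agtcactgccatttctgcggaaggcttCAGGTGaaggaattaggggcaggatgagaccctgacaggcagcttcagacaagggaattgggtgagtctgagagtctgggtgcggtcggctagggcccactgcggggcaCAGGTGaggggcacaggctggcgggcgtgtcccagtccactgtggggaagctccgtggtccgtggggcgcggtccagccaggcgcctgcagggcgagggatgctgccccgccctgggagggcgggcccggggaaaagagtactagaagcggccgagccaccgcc
Lmo4: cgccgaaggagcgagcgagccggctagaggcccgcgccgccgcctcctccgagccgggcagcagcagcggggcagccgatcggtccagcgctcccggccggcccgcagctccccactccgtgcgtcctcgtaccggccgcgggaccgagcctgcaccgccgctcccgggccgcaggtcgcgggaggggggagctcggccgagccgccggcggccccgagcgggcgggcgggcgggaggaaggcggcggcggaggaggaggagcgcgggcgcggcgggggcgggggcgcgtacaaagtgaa

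Matches in Cd3g start at bases -148, -35 and 24 counted from the transcript start (negative before it), those in Rag1 at -135 and -128, side by side, and those in Lgals3 at -223 and -114. At least 1 match was present in 35.5% of 482 promoters of lower genes, in 31.2% of 567 promoters of higher genes and in 29% of 9735 promoters of all tested genes with an entry. Promoters on chromosome 18 were left out of these shares. The letters describe these windows only and do not show binding.

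The genes of recombination and the pre-T cell receptor were lower together. Of 14 tested, 7 were lower and 0 higher, with a median log2 change of -2.13 against 0.00 over all tested genes. Calls in this list and those below stand beside 5.42% higher and 4.52% lower among all genes tested. Whether any list differs from these shares was not tested. The 7 include Dntt, which was supplied as a mark. Beside Rag1, Dntt, Cd3g and Cd3d these were Rag2 (0.772 and 0.266 CPM in floxed, 7.28 and 10.2 CPM in control libraries), Cd3e (6.56 and 7.33 against 44.2 and 45.3 CPM) and Ptcra, the pre-T alpha chain (1.54 and 2.80 against 6.31 and 7.74 CPM). Other chains of the receptor were not called. Cd247, the zeta chain that signals for several receptors, had 54.2 and 61.5 CPM in floxed and 76.8 and 75.4 CPM in control libraries (-0.33 ± 0.20, adjusted p = 0.251 in edgeR). The T cell receptor beta constant regions Trbc1 and Trbc2 differed by 0.18 ± 0.09 and -0.25 ± 0.12, and neither passed. Cd4, Cd8a and Cd8b1 stayed under 1.3 CPM in every library. Within the CD3 complex, the gamma, delta and epsilon chains thus changed by -4.78, -3.33 and -2.63 on the log2 scale, while the zeta chain did not pass.

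Of 7 gamma-delta receptor genes tested, Tcrg-C1 was higher (1033 and 1004 CPM in floxed, 606 and 574 CPM in control libraries) and Trdc lower (92.7 and 87.8 against 170 and 163 CPM), with a median of -0.15. Of 18 proximal T cell receptor signalling genes, 3 were higher and 2 lower, and the median was 0.17. Txk, a Tec family kinase, had 177 and 221 CPM in floxed and 59.8 and 61.0 CPM in control libraries. Skap1, an adaptor, had 137 and 121 against 52.0 and 35.6 CPM. The lower members were Plcg1 (-0.73 ± 0.13) and Cd5 (-1.48 ± 0.32). Lck, the kinase that starts receptor signalling, had 238 and 271 against 348 and 356 CPM and did not pass (adjusted p = 0.0552 in edgeR).

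Genes known from B lymphoid progenitors, which early thymocytes also transcribe, were among the most reduced: 4 of 7 tested were lower and 1 higher, with a median of -4.21. Vpreb1, part of the surrogate light chain, had 0.900 and 0.666 CPM in floxed and 17.1 and 13.7 CPM in control libraries. Mzb1, a chaperone of the endoplasmic reticulum, had 0.900 and 0 against 20.3 and 25.7 CPM (-5.55, or -4.62 without floxed replicate b), and Ly6d, a surface protein of lymphoid progenitors, 1.67 and 1.47 against 42.6 and 43.4 CPM. All 3 were near their detection limit in floxed cultures. Rag1 is also on this list. Bank1, an adaptor of B cell receptor signalling, went the other way, with 13.6 and 12.9 CPM in floxed and 1.46 and 1.25 CPM in control libraries (3.34 ± 0.52).

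Notch signalling commits early precursors to the T lineage, and DL1 on the stroma supplied its ligand to both genotypes. Of 13 Notch receptors and targets tested, 5 were lower and 0 higher, with a median of -1.30, or -0.83 without floxed replicate b. Notch1 had 48.0 and 26 CPM in floxed and 276.7 and 249.2 CPM in control libraries (-2.77 ± 0.20, adjusted p = 2.93e-08 in edgeR), and Notch3 7.85 and 4.26 against 33.4 and 31.8 CPM. Both receptors were thus clearly lower in each floxed library, whereas Notch2 had 31.8 and 19.9 against 29.0 and 25.6 CPM and did not pass. Among direct targets, Hes1 had 84.0 and 35.8 CPM in floxed and 152 and 154 CPM in control libraries, and Nrarp 18.5 and 17.5 against 50.3 and 44.3 CPM. Dtx4 was also lower (-3.22 ± 0.52, or -2.33 without floxed replicate b). Tcf7 and Bcl11b, transcription factors induced on T commitment that ILC2 also need, were not called. Tcf7 had 540 and 347 CPM in floxed and 543 and 527 CPM in control libraries, and Bcl11b 523 and 416 against 652 and 666 CPM. Bcl11b passed as lower with all 24 libraries but not in both fits.

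Of 15 progenitor factors and receptors, 5 were lower and 0 higher, with a median of -1.10. They were Cd34 (18.4 and 9.86 CPM in floxed, 51.3 and 61.0 CPM in control libraries), Bcl11a (5.92 and 2.80 against 21.8 and 23.8 CPM), Erg (4.89 and 0.266 against 21 and 20.5 CPM), Spi1, the myeloid factor PU.1 (5.27 and 0.933 against 15.3 and 15.2 CPM), and Gata2. Gata2 had 1 count over both floxed libraries and 40 over both control libraries, so the control level was 37.6 times the floxed level (95% interval of counting error 6.37 to 1522). Floxed replicate b was lower than a for each of these genes, and without it the changes of Erg and Spi1 were -2.05 and -1.50, against -2.94 and -2.23. Kit, the stem cell factor receptor, had 146 and 79.4 CPM in floxed and 84.8 and 82.9 CPM in control libraries and did not pass (adjusted p = 0.221 in edgeR).

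Within the E protein and Id family, 5 of 9 were lower and 1 higher, with a median of -1.35, a list that includes the targeted genes. Id2, the E protein inhibitor that all innate lymphoid cells need, had 496 and 908 CPM in floxed and 147 and 143 CPM in control libraries (2.34 ± 0.21, adjusted p = 3.01e-07 in edgeR). Id3 went the other way, with 106 and 65.4 CPM in floxed and 251 and 284 CPM in control libraries (-1.59 ± 0.17), as did Id1, with 24.4 and 15.1 against 56.7 and 47.8 CPM. The 3 inhibitors therefore did not move as a group. Tcf4 (E2-2, the third E protein, not targeted) had 89.9 and 80.9 CPM in floxed and 151 and 157 CPM in control libraries (-0.79 ± 0.09). Lyl1, a class II helix-loop-helix factor of progenitors, had 7.85 and 4.26 against 81.6 and 73.9 CPM (-3.62 ± 0.33).

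Transcription factors known in ILC2 were mostly higher: 10 of 18 were higher and 4 lower, with a median of 1.28. The 10 include Maf and Lmo4, supplied as marks of this comparison, and Rxrg, the top of its ranking. The tally is therefore not independent of these data. Rora, which ILC2 require, had 605 and 537 CPM in floxed and 53.3 and 45.7 CPM in control libraries (3.59 ± 0.37, adjusted p = 1.73e-06 in edgeR). Gata3, the factor of type 2 lymphocytes, had 542 and 409 against 184 and 161 CPM (1.52 ± 0.20). Zbtb16 (PLZF), a mark of innate lymphoid precursors, had 87.7 and 41.8 against 9.58 and 5.37 CPM (3.16 ± 0.39). Each was higher in both floxed libraries than in either control. Tox had 499 and 470 against 164 and 158 CPM, and Ahr, the aryl hydrocarbon receptor, 118 and 163 against 22.4 and 20.3 CPM. Nfil3 and Batf, bZIP factors, were also higher, by 1.81 ± 0.34 and 1.04 ± 0.26. Not all ILC2 factors followed. Gfi1, a repressor that supports ILC2, had 20.1 and 14.8 CPM in floxed and 69.5 and 71.7 CPM in control libraries (-1.96 ± 0.18). Ets1 (-0.59 ± 0.17), Bhlhe40 (-0.94 ± 0.15) and Pparg, which stayed under 6 CPM in every library, were lower too.

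Of 16 ILC2 receptors and surface genes, 6 were higher and 2 lower, with a median of 0.38. The 6 include Icos, which was supplied as a mark. Il17rb, the IL-25 receptor chain, had 113 and 115 CPM in floxed and 53.9 and 52.8 CPM in control libraries (1.15 ± 0.12). Il18r1 had 31.5 and 52.9 against 10.7 and 6.74 CPM, and Il9r 24.2 and 22.1 against 6.31 and 7.12 CPM. Tnfrsf25 (DR3) was close to absent in controls, at 8.75 and 20.4 CPM in floxed and 0.970 and 0.499 CPM in control libraries (4.34 ± 0.55, or 3.57 without floxed replicate b). Other receptors that define mature ILC2 were barely detected: Il1rl1, the IL-33 receptor ST2, stayed under 0.6 CPM in every library, Klrg1 had 2.06 and 0.666 CPM in floxed and 0 and 0.125 CPM in control libraries (adjusted p = 0.0727 in edgeR), and Nmur1 was listed at 0 in all 4. Differences in such genes were not detectable at this depth. Il7r had 58.4 and 48.2 against 45.0 and 40.3 CPM and did not pass, and Ramp1, part of the CGRP receptor, was lower (-0.99 ± 0.21).

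Of 16 cytokines and TNF family ligands tested, 4 were higher and 0 lower, and the median was 0.01. Among all genes tested, 5.42% were higher and 4.52% lower. Beside Il13 these were Il4 (3.47 and 3.46 CPM in floxed, 0.607 and 0.125 CPM in control libraries; adjusted p = 0.0646 in edgeR without control replicate d), Lta, lymphotoxin alpha (50.9 and 56.1 against 14.9 and 9.61 CPM), and Tnfsf14, LIGHT (25.3 and 16.5 against 8.13 and 6.49 CPM). Il5, the other defining ILC2 cytokine, had 5 counts in floxed replicate a and 56 in b against 2 in each control library, and was too low to be tested. Il9, Il10, Il17a and Il22 were at 0 in all 4 libraries. Il2 had 14.3 and 15.2 CPM in floxed and 13.8 and 15.5 CPM in control libraries (0.07 ± 0.19).

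Costimulatory and inhibitory receptors split: 7 of 15 were higher and 3 lower, with a median of 1.68, or 0.84 without floxed replicate b. Cd28 had 58.5 and 73.8 CPM in floxed and 24.3 and 18.9 CPM in control libraries, and Pdcd1 (PD-1) 66.8 and 73.4 against 20.6 and 17.9 CPM. The TNF receptors Tnfrsf9 (4-1BB) and Tnfrsf18 (GITR) had 84.8 and 150 against 8.49 and 5.99 CPM and 276 and 641 against 84.3 and 73.3 CPM. Floxed replicate b was the higher floxed library for both, and the Tnfrsf18 change was 2.61, or 1.84 without it. Cd226 (2.28 ± 0.45) and Cd200r1 (2.90 ± 0.57, or 1.86 without floxed replicate b) were higher at under 30 CPM. Icos is also on this list. The 3 lower members were Ctla4, Havcr2 (TIM-3, -1.33 ± 0.37) and Cd244a (2B4, -2.19 ± 0.41). Icos and Ctla4, which lie beside each other in the CD28 family cluster of chromosome 1, thus changed in opposite directions.

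Genes of migration were higher in several families. Of 12 chemokine and related receptors, 6 were higher and 1 lower, with a median of 1.14. Ccr2, the CCL2 receptor, had 396 and 186 CPM in floxed and 25.6 and 20.2 CPM in control libraries (3.72 ± 0.32, adjusted p = 2.36e-07 in edgeR), and Cx3cr1 121 and 101 against 16.7 and 19.8 CPM. S1pr1, which guides exit from the thymus, had 19.4 and 19.1 against 5.46 and 4.37 CPM. Gpr183, a receptor for oxysterols, was higher as well (2.51 ± 0.43). Cxcr4, the CXCL12 receptor, was the lower one, with 100 and 49.6 CPM in floxed and 222 and 226 CPM in control libraries. Of 14 integrin genes, 8 were higher and 1 lower, with a median of 0.86. Itgb3 had 116 and 412 against 26.7 and 29.0 CPM, with a log2 change of 3.32, or 2.10 without floxed replicate b, and Itgae (CD103) 30.6 and 40.1 against 13.3 and 7.86 CPM. Itga4 and Itgb7, which pair as the gut-homing integrin, had 514 and 374 against 246 and 237 CPM and 284 and 382 against 148 and 148 CPM. Itgal and Itgb2, the LFA-1 pair, were higher by 1.07 ± 0.11 and 0.79 ± 0.19. Itgb5 and Itga2, under 10 CPM, were the remaining higher ones: Itgb5 changed by 2.97, or 2.27 without floxed replicate b, and Itga2 did not hold without floxed replicate a or either control (adjusted p = 0.0745, 0.0944 and 0.196 in edgeR). Itga6 was lower (76.5 and 68.6 against 168 and 161 CPM).

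In the common gamma chain and STAT5 pathway, which reads the IL-2 and IL-7 in the medium, 3 of 17 were higher and 1 lower, with a median of -0.04. Il2rb, the IL-2 receptor beta chain, had 100 and 174 CPM in floxed and 22.1 and 18.7 CPM in control libraries (2.81 ± 0.38), while Il2ra differed by -0.14 ± 0.10. Socs1 was higher by 0.63 ± 0.17 and Stat5a lower, at -0.44 ± 0.12. Neither held without control replicate d (adjusted p = 0.134 and 0.166 in edgeR), nor Socs1 without floxed replicate a (0.0681). Cish, a STAT5 target, had 78.6 and 149 against 98.5 and 103 CPM and did not pass.

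Of 9 cytotoxic and NK genes, 2 were higher and 1 lower, with a median of 0.30. The granzymes went in opposite directions: Gzmb had 352 and 414 CPM in floxed and 45.4 and 28.5 CPM in control libraries (3.44 ± 0.49), and Gzma 640 and 377 against 1432 and 1386 CPM (-1.42 ± 0.18). Il2rb was the other higher one. Tbx21, the factor T-bet of type 1 cells, stayed under 1.7 CPM throughout and Ncr1 was at 0. Of 5 ILC3 genes, Ahr was higher and Tmem176a and Tmem176b lower, with a median of 1.86. The Tmem176a call did not hold without floxed replicate a or either control (adjusted p = 0.0662, 0.0741 and 0.107 in edgeR). Of 9 Runx and Ikaros family genes, Ikzf3 and Ikzf2 (Helios, 344 and 305 against 149 and 123 CPM) were higher and none lower, with a median of 0.27.

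**Figure D3:**
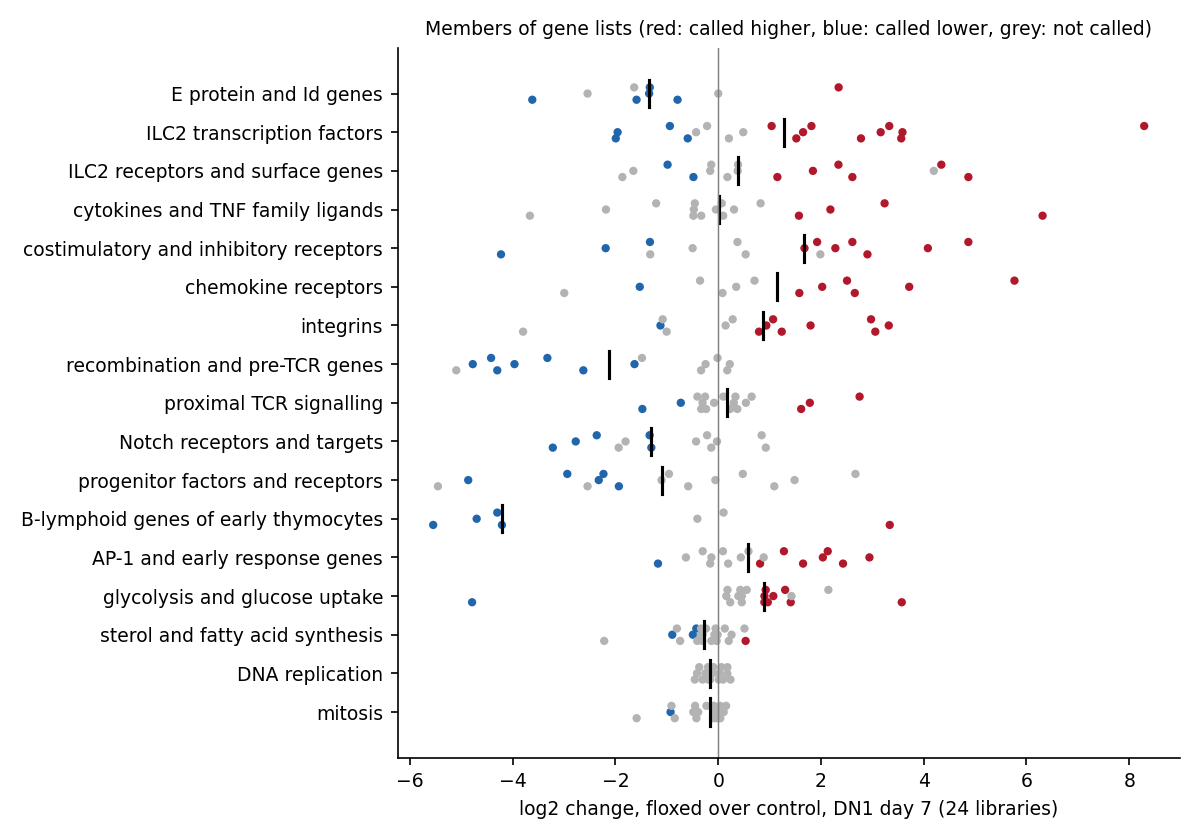
Log2 change of floxed over control DN1 cultures on day 7 (24-library fit) for each tested member of 17 gene lists; red points were called higher, blue lower and grey not called, and the vertical bar is the list's median. Medians range from -4.21 for the B-lymphoid genes to 1.68 for the costimulatory and inhibitory receptors, and no DNA replication gene was called.

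AP-1 and early response genes were higher in part: 7 of 17 were higher and 1 lower, with a median of 0.59. Fosb had 113 and 116 CPM in floxed and 24.5 and 6.37 CPM in control libraries, and Fos 114 and 56.8 against 30.7 and 12.4 CPM. Control libraries differed by over 2-fold for both genes, and Fos did not pass without control replicate d (adjusted p = 0.114 in edgeR). Fosl2 (2.43 ± 0.35), Jun (1.28 ± 0.22), Junb (0.81 ± 0.18), the phosphatase Dusp1 (2.13 ± 0.23) and the RNA decay factor Zfp36 (1.65 ± 0.37) were higher with them. Dusp2 was lower, with 99.7 and 127 against 226 and 307 CPM. Egr1 and Nr4a1, targets of antigen receptor signals, changed by 0.89 ± 0.34 and -0.30 ± 0.56 and did not pass.

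Of 19 glycolysis and glucose uptake genes, 8 were higher and 1 lower, with a median of 0.90. Slc16a3, a lactate exporter, had 35.8 and 45.8 CPM in floxed and 4.12 and 3 CPM in control libraries (3.57 ± 0.40). The enzymes rose by smaller steps: Eno1 had 209 and 173 against 70.7 and 78.5 CPM, Aldoa 328 and 384 against 171 and 183 CPM, and Ldha 739 and 873 against 429 and 433 CPM. Hk1, Hk2, Pfkp and Tpi1 were also higher, by 0.90 to 1.30 on the log2 scale. Fbp1, which runs the opposing step of gluconeogenesis, was lower, at 0 and 1.33 CPM in floxed and 21 and 17.9 CPM in control libraries. Muscle is rich in glycolytic enzymes, and with all libraries 13 of the list passed as higher; without floxed replicate b the list's median was 0.41. The muscle-type Pfkm, at 10.5 and 34.2 CPM in floxed and 8.86 and 8.61 CPM in control libraries, was among the 5 that did not pass both fits.

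Over all genes tested, 9.93% were called, 5.42% as higher and 4.52% as lower. Calls in the growth and survival lists stand beside that share, and whether they differ from it was not tested. In the edgeR test 0 of 19 DNA replication genes were called (median -0.16), although Cdt1 and Rrm1 passed as lower with all 24 libraries. Of 18 mitosis genes 1 was called lower, the kinesin Kif11 (-0.93 ± 0.19). With all 24 libraries 7 of the 18 passed as lower and 0 as higher, against 10.3% lower among all genes tested. The other 6, the checkpoint and kinetochore genes Bub1, Bub1b, Aurkb, Cenpe, Cenpf and Ttk, did not pass without floxed replicate b. The list's median was -0.17, or -0.33 without floxed replicate b. The difference moved downward between day 4 and day 7 for 4 of the 18, against 3.62% of all genes tested. Mki67, a mark of cycling cells, had 220 and 205 CPM in floxed and 231 and 224 CPM in control libraries. Of 18 G1 cyclins and inhibitors, only Rb1 was called, higher by 0.64 ± 0.12 (list median -0.04). Of 13 Bcl2 family genes, the survival gene Bcl2l1 was higher (73.2 and 112 against 46.6 and 46.3 CPM) and the pro-death gene Bmf lower (0.643 and 3.33 against 5.58 and 5.74 CPM), with a median of -0.08. The change of Bmf was -1.45, or -3.07 without floxed replicate b, and did not pass without floxed replicate a or either control (adjusted p = 0.129, 0.0703 and 0.0811 in edgeR). Bcl2 itself had 443 CPM in each floxed library and 476 and 472 CPM in control libraries. Of 22 sterol and fatty acid synthesis genes, Fasn was higher and Fdps, Fdft1 and Msmo1 lower (median -0.27). Fdft1 and Msmo1 did not pass without floxed replicate a (adjusted p = 0.335 and 0.248 in edgeR), control replicate c (0.0682 and 0.08) or control replicate d (0.215 and 0.133). In the interferon list Bst2 was lower, 1 of 13 (median -0.16, or -0.85 without floxed replicate b), and among p53 targets Trp53inp1 was lower, 1 of 9 (median -0.17).

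The difference between genotypes was followed over the days of culture, in other libraries. On day 4, when cells were not sorted by tdTomato, 13 of 14570 genes (0.0892%) passed between floxed and control DN1 cultures, 8 higher (0.0549%) and 5 lower (0.0343%). On day 5 it was 730 (5.01%), 370 higher (2.54%) and 360 lower (2.47%). Of the day 7 genes, 237 higher ones were also higher on day 5, which is 30% of the day 7 list and 64.1% of the day 5 list, and 200 lower ones were also lower on day 5 (30.4% and 55.6%). In the opposite direction were 0 of the higher and 3 of the lower genes. The day 5 list needed only the fit over all 24 libraries, so its shares are lowered by the stricter rule for day 7. Maf and Lmo4 had already passed on day 5, with 79.1 and 218 CPM in floxed against 21.9 and 25.8 CPM in control libraries and with 556 and 1014 against 163 and 157 CPM. Tcf12 was also lower by then (-0.98 ± 0.10).

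The change of the difference itself was tested. The labelled day of 4-hydroxytamoxifen differs between the DN1 day 7 libraries and those of day 4, day 5 and DN3, so labelled treatment cannot be told apart from day of culture or stage in these tests. Between day 4 and day 7 it passed for 1140 genes (7.82%), 613 upward and 527 downward (4.21% and 3.62%), and 289 and 302 of these (1.98% and 2.07%) passed without floxed replicate b too. Of the called genes, 428 of 789 higher and 410 of 658 lower ones were among the 1140. The same day 7 libraries chose the called genes, so this overlap was largely built in and is not independent support. Rag1 had 62.9 and 25.6 CPM in floxed and 22.9 and 20.8 CPM in control cultures on day 4, 6.35 and 7.79 against 39.7 and 32.2 CPM on day 5, and 2.19 and 4.40 against 63.7 and 71.8 CPM on day 7. Dntt went the same way, at 114 and 52.5 against 65.1 and 40.1 CPM on day 4, 28.5 and 31.2 against 87.2 and 74.7 CPM on day 5, and 14.1 and 11.2 against 296 and 271 CPM on day 7. Control cultures thus had more of both messages on each later day and floxed cultures less. Day 4 cells also held stromal RNA, with OP9 marker sums of 5921 and 7174 CPM in floxed and 8287 and 7930 CPM in control libraries, against 71.4 to 197 CPM on day 7. Jag1, a Notch ligand, had 73.2 and 91.6 CPM in floxed and 87.5 and 99.6 CPM in control cultures on day 4, and 22.3 and 49 against 2.67 and 0.624 CPM on day 7. The part of stromal RNA in such day 4 levels was not tested.

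Between day 5 and day 7 the difference moved for 243 genes (1.67%), upward for 129 and downward for 114 (0.885% and 0.782%). Without floxed replicate b 61 and 32 of these passed as well (0.419% and 0.22%). Tnfrsf9 had 2.12 and 3.26 CPM in floxed and 3.26 and 3.67 CPM in control cultures on day 5, against 84.8 and 150 and 8.49 and 5.99 CPM on day 7, so its difference appeared only after day 5 (change of the difference 4.49 ± 0.68, adjusted p = 0.00261 in edgeR). Slc16a3 had the same course. Myo6 already leaned upward on day 5, with 11.6 and 13.7 CPM in floxed against 5.93 and 8.99 CPM in control cultures. That day 5 difference (0.71 ± 0.57) did not pass. Id3 and Cd34 turned round. Id3 had 159 and 133 CPM in floxed and 65.5 and 66.6 CPM in control cultures on day 5, and 106 and 65.4 against 251 and 284 CPM on day 7. Cd34 had 70.8 and 50.2 against 26 and 27.9 CPM on day 5, and 18.4 and 9.86 against 51.3 and 61.0 CPM on day 7. For both genes floxed libraries were above the controls on day 5 and below them on day 7, without overlap on either day.

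**Figure D4:**
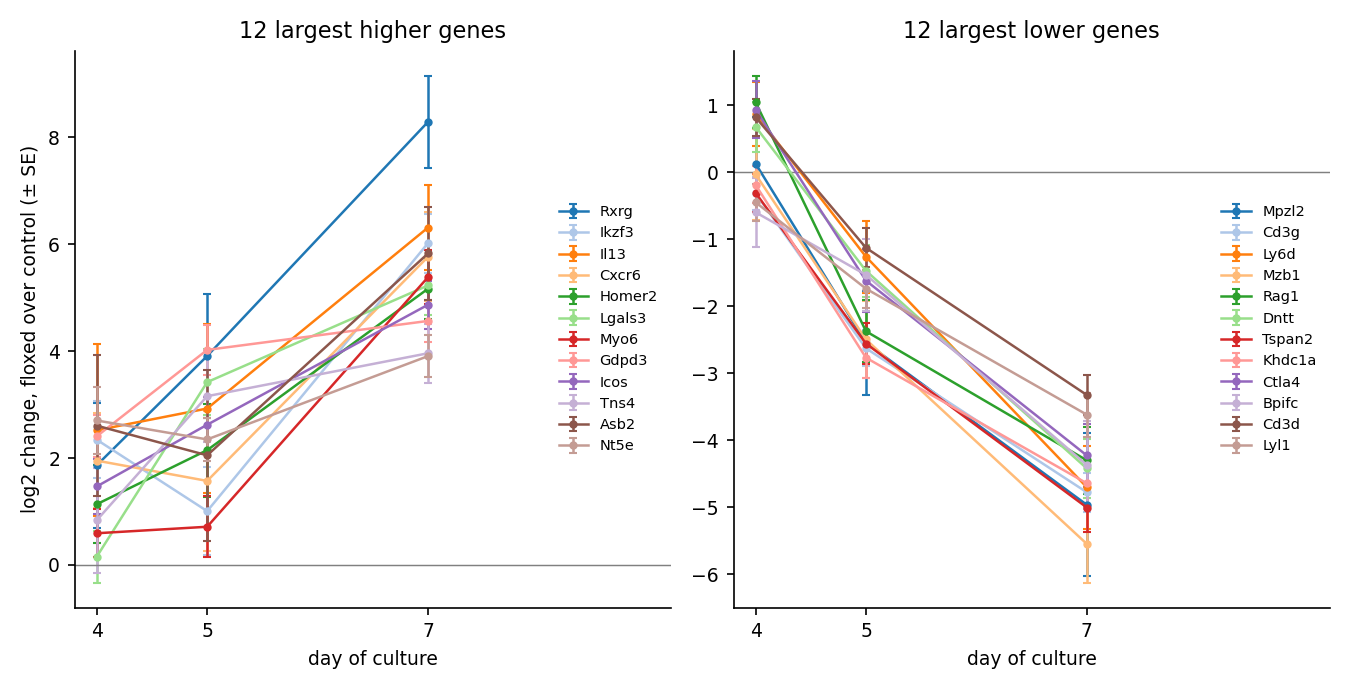
Log2 change of floxed over control DN1 cultures (± standard error) on days 4, 5 and 7 of culture for the 12 largest increases (left) and decreases (right) of day 7; each line is a gene and each point compares 2 floxed with 2 control libraries. Lgals3 goes from 0.15 through 3.42 to 5.23 and Dntt from 0.68 through -1.47 to -4.42.

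DN3 is a later stage at which most cells are committed to the T lineage. Of 14570 genes, 3640 (25%) passed between floxed and control DN3 cultures on day 7, 1890 higher (13%) and 1750 lower (12%). Of the genes called in DN1 cultures, 521 higher ones also passed as higher in DN3 (66% of the DN1 list and 27.6% of the DN3 list), and 341 lower ones as lower (51.8% and 19.5%), whereas 22 and 28 passed in the opposite direction. The DN3 list needed only the fit over all 24 libraries, so its shares are lowered by the stricter rule for DN1. The difference between the DN1 and DN3 changes was tested directly and passed for 1151 genes (7.9%), 564 with the more positive change in DN1 (3.87%) and 587 with the more negative (4.03%). Without floxed replicate b 342 and 380 of these (2.35% and 2.61%) passed too.

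Among the named genes that passed, Ikzf3 showed the largest such difference, 5.58 ± 0.69 (adjusted p = 7.48e-05 in edgeR). It stood at 66.2 and 73.5 CPM in floxed and 1.70 and 0.499 CPM in control DN1 cultures, and at 45.9 and 49.5 against 36.4 and 37.1 CPM in DN3 cultures, so that DN3 controls already expressed it. Tox2, a Tox family factor, had 489 and 297 against 82.7 and 62.9 CPM in DN1 and 79.4 and 23 against 151 and 117 CPM in DN3 cultures. Pdcd1 had 66.8 and 73.4 against 20.6 and 17.9 CPM in DN1 and 12 and 6.09 against 23.3 and 20.4 CPM in DN3 cultures. Both were higher in floxed DN1 and lower in floxed DN3 cultures. St3gal6, a sialyltransferase, had 30.6 and 54.1 against 2.79 and 2.62 CPM in DN1 and stayed under 2 CPM in DN3 cultures.

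Other genes were lower in floxed DN1 cultures alone or more strongly there. Muc13, a membrane mucin, had 22.1 and 10.3 CPM in floxed and 121 and 144 CPM in control DN1 cultures, and 28.9 and 14.2 against 7.36 and 7.65 CPM in DN3 cultures. Lcn4, a lipocalin, had 7.2 and 8.26 against 24 and 21.7 CPM in DN1 and 3.05 and 6.90 against 1.42 and 1.14 CPM in DN3 cultures. Ctla4 was lower in both, with 7.59 and 2.13 against 91.6 and 99.5 CPM in DN1 and 99.7 and 56.0 against 212 and 190 CPM in DN3 cultures, and the DN1 minus DN3 difference was -2.92 ± 0.60 on the log2 scale. Cd3g and Cd3d, with changes of -4.78 and -3.33 in DN1 and -1.94 and -1.24 in DN3, also passed this test (adjusted p = 0.000144 and 0.00236 in edgeR). Rag1 and Dntt did not: their changes were -4.30 and -4.42 in DN1 and -6.15 and -3.84 in DN3, with the difference at adjusted p = 0.137 and 0.573 in edgeR.

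**Figure D5:**
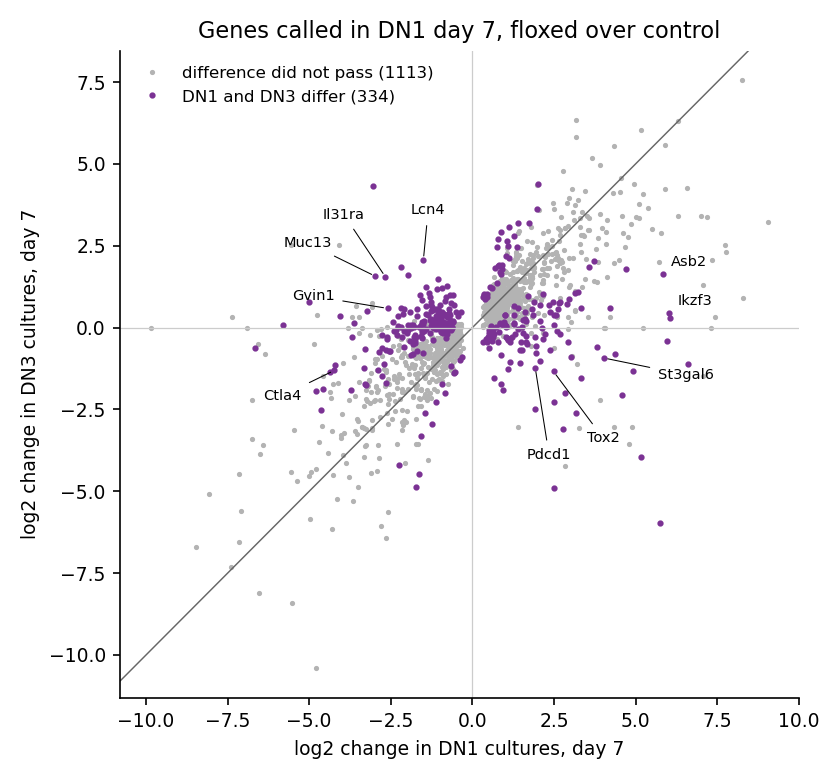
Log2 change of floxed over control cultures on day 7 in DN1 (x axis) and DN3 (y axis) for the 1447 genes called in DN1 cultures; purple points passed the test of the difference between the 2 changes, and the diagonal marks equal changes. Ikzf3, Asb2 and St3gal6 lie right of the diagonal, and Muc13, Il31ra and Lcn4 were lower in floxed DN1 with positive log2 changes in DN3.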

How the data were processed

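Per the labels' protocols, Trizol was used for total RNA and sequencing libraries were made by Illumina's usual protocol. The authors deposited raw counts per Ensembl gene, 1 column per library. The submitters' processing notes name mm10 and DESeq2, without versions; for the aligner, the counter and the annotation, no name is given in the sources used here. Gene names and positions came from GENCODE M21 (48664 of 48881 IDs), promoters from RefSeq.

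From the counts, edgeR 4.0.16 (R 4.3.3; filterByExpr minimum count 10, TMM, quasi-likelihood, 1 mean per group) was fitted to 24 culture libraries, with 12 residual degrees of freedom, a common biological coefficient of variation of 0.138 and Benjamini-Hochberg adjustment over 15172 genes. The fit was repeated without floxed replicate b, where floxed replicate a alone is assumed to vary like the other groups. Interaction contrasts came from the same fit. DESeq2 1.42.0, upper-quartile scaling, no filter, other sets of libraries, a 2-fold test and a replicate block were alternatives. The procedure was tested on simulated data, with 1 mean per group and a spread pooled over groups. Muscle RNA in floxed replicate b alone and the wider spread of the floxed replicates were not simulated, so the rule was not tested under them.

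Named genes were the 12 largest calls each way and 5 each way per interaction (protein-coding, at least 20 CPM, no overlap), the supplied markers and members of the lists. Members and lists were chosen with earlier results of these data known. Counting strand is unknown, so overlapping genes may share reads. Some listed genes are not reported here by name.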

Additional observations from a re-analysis of the deposited data

Results flagged for a closer look

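The change of the genotype difference between settings passed edgeR's test for the genes below, each called in DN1 cultures on day 7. Values are differences of log2 changes. The genes were chosen for large values among those called with and without floxed replicate b. Passing without that replicate, as given below, was thus partly built into the choice and is not independent support.

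From day 4 to day 7 in DN1 cultures the difference moved by 5.08 for Lgals3, 4.79 for Myo6, 4.67 for Jag1, 4.37 for Hmga2 and 4.03 for Homer2. It moved by -5.57 for Ly6d, -5.52 for Mzb1, -5.34 for Rag1, -5.16 for Ctla4 and -5.10 for Dntt. Day 4 libraries held OP9 marker sums of 5921 to 8287 CPM, against 71.4 to 197 CPM on day 7. The part of stromal RNA in these day 4 differences was not tested. All 10 also passed without floxed replicate b.

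From day 5 to day 7 it moved by 5.02 for Ikzf3, 4.67 for Myo6, 4.49 for Tnfrsf9, 3.59 for Slc16a3 and 3.29 for Ankrd6, and by -3.07 for Cd34, -2.95 for Dntt, -2.83 for Olfm5, -2.71 for Alox5ap and -2.70 for Id3. Without floxed replicate b 7 of the 10 passed, and Ikzf3 (adjusted p = 0.06 in edgeR), Dntt (0.0505) and Alox5ap (0.0725) did not.

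Between DN1 and DN3 cultures on day 7 the change differed by 5.58 for Ikzf3, 4.95 for St3gal6, 4.20 for Asb2, 3.83 for Tox2 and 3.15 for Pdcd1, and by -4.54 for Muc13, -4.22 for Il31ra, -3.56 for Lcn4, -3.18 for Gvin1 and -2.92 for Ctla4. Without floxed replicate b 9 of the 10 passed. The exception was Asb2, at 2.28 (adjusted p = 0.157 in edgeR), whose level was highest in the library with muscle RNA.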

How the results depend on the processing

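Calls between floxed and control DN1 cultures on day 7 numbered 3284 with all libraries and 1447 with and without floxed replicate b. With the DN1 day 7 libraries alone they numbered 770 and 768, and against a change of 2-fold 533 and 247. Leaving out 1 library gave 1619 to 5583 and 935 to 960: 5583 without floxed replicate a, 1619 without b, 1807 without control replicate c and 1782 without d, where the lone library is assumed to vary like the other groups. With no filter on low counts the changes of the difference passed for 1819 genes (day 4 to 7, main 1140), 897 (day 5 to 7, main 243) and 1841 (DN1 against DN3, main 1151), and DESeq2 gave 433 for day 5 to 7. Leaving out 1 library gave 553 to 3602, 63 to 2233 and 488 to 3029. Each highest count was without floxed replicate a of DN1 day 7. From day 4 to 7 the count was 828 without floxed day 4 replicate b and 553 to 700 without each of the rest, and from day 5 to 7 it was 186 without floxed day 5 replicate b and 63 to 120 without each of the rest. For DN1 against DN3 it was 940 without floxed replicate b, 829 without floxed DN3 replicate a and 488 to 744 without each of the rest. The overlap with day 5 (437) ranged from 164 (without floxed day 5 replicate b) to 405, and was 213 and 208 without control day 5 replicates c and d. The causes were not tested.

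No source says that a replicate letter marks a shared mouse, and floxed and control groups share no letter. Deviations of equal letters correlated at -0.208 to 0.173. A replicate block within genotype gave 3361, 1529, 1219, 301, 1220 and 526 for the 6 counts in the order above, and a crossed replicate block, in which the letters a and b of floxed DN1 day 7 were exchanged, added after seeing the data, 3110, 1260, 1012, 194, 1051 and 421.

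Of 1187 values of 108 named genes, 1105 kept direction and side of the threshold, 82 no longer passed and 0 reversed. Most of these genes were named because they were called, which already required passing with all libraries and without floxed replicate b. Values of the setting without floxed replicate b were thus largely fixed by the choice of genes and are not independent support. Tcf3, named as a targeted gene and not called, changed by -1.64 with all libraries and by -1.17 in that setting. Genes under about 1 CPM rest on fewer than 10 counts, which limits what can be seen.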

Other observations

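The same count table held 2 libraries of fresh thymic ILC2 with the genotype plck-Cre; E2Af/fHEBf/f. Levels of the named genes in them are given as values, with no comparison. Of the genes higher in floxed DN1 cultures on day 7, Ikzf3 stood at 148 and 158 CPM, Icos at 90.5 and 156 CPM, Lmo4 at 235 and 407 CPM, Maf at 89.6 and 124 CPM and Cxcr6 at 24 and 47.1 CPM. Lgals3, at 1053 and 1702 CPM in the floxed cultures, stood at 1.76 and 1.25 CPM in these cells. Il13 stood at 0.176 and 0 CPM, Homer2 at 0.353 and 0.830 CPM and Rxrg at 0 and 1.25 CPM. Of the genes lower in the cultures, Rag1 stood at 49.9 and 58.3 CPM, Dntt at 143 and 93.8 CPM and Cd3g at 55.7 and 47.1 CPM, whereas Lyl1 stood at 0 and 0.208 CPM. Id3 was at 0 in both libraries.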
